A study of Mus musculus with 48 samples.

Results

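IGHV1-9 is the heavy-chain variable gene of P_2G10, a clonotype that the study recovered by panning a single-chain antibody phage library against PmE-L, a bacterial aquaporin peptide. It was followed here in 48 BCR heavy-chain libraries of mouse lacrimal gland (LG) and spleen. Its members were all rows whose IGHV call named this gene, 134410 of 4834214 rows, and the series held 148 IGHV genes in all. The mice were C57BL/6 (B6) mice in 3 groups. The NOD-FMT group (10 mice) was gavaged with the fecal microbiota of NOD.B10.H2b mice that had autoimmune dry eye disease, pooled from 30 donors older than 20 weeks. The PBS-T group (9 mice) was gavaged with PBS on the same schedule, and the NC group (5 mice) came from the same cohort and received no treatment. Gavage began at 5 weeks of age and was given daily for 3 weeks. It followed mixing of feces between cages and 7 days of ampicillin, vancomycin and metronidazole in the drinking water. Each mouse gave 1 LG and 1 spleen library from total RNA, reverse-transcribed with primers that carried unique molecular identifiers. The values are counts of consensus sequences, and a clonotype is a set of sequences with the same IGHV gene, IGHJ gene and HCDR3 amino acids. HCDR3 is the complementarity-determining region of the heavy chain that spans the V-D-J junction.

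Each developing B cell joins 1 of many IGHV genes to a D and a J segment, so the IGHV gene fixes the first and second complementarity-determining regions (CDR1 and CDR2) while HCDR3 is made anew at the junction. After contact with antigen, B cells can acquire somatic hypermutation (SHM) in the V region and switch from IgM to other isotypes. In the LG, plasma cells secrete IgA into the tears, whereas the spleen is rich in IgM-bearing B cells. IGHV1-9 belongs to the IGHV1 (J558) family, the largest of the mouse.

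The gene (ENSMUSG00000094694.6, IG_V_gene) lies on the minus strand of chromosome 12 at 114583569 to 114584002 of GRCm38 (mm10), in GENCODE M21, with a leader exon at 114583957 to 114584002 and a V exon at 114583569 to 114583873. All deposited rows named the same allele. The sequences below are given because the clonotypes described later differ from the germline at few bases. They run 5′ to 3′ in the sense of the transcript. The germline stretch is chr12:114583569-114583842 and spans, to the last base of the V exon, the bases from framework 1 to the first bases of HCDR3. In the other lines, which stop 1 base earlier, capitals mark bases that differ from it, and the last bases belong to HCDR3. Each of these lines is the V part of the sequence with the most counts of its clonotype in the mouse and tissue named.
Germline IGHV1-9: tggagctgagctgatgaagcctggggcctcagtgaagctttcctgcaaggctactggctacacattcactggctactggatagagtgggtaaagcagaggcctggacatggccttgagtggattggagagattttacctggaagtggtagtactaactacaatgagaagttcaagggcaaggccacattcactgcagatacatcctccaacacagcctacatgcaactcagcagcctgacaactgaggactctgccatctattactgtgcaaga
P_2G10, LG, NOD-FMT 8: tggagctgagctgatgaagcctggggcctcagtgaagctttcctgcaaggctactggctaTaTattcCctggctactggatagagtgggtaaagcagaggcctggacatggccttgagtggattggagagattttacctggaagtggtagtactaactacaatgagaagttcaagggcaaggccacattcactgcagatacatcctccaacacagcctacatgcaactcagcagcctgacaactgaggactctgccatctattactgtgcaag
P_2G10, spleen, NOD-FMT 6: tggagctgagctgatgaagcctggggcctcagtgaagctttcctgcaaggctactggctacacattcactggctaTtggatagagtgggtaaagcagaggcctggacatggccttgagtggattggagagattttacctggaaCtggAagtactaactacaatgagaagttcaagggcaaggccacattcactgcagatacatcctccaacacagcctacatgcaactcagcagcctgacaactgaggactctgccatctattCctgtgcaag
ARGGNYFDY, LG, PBS-T 2: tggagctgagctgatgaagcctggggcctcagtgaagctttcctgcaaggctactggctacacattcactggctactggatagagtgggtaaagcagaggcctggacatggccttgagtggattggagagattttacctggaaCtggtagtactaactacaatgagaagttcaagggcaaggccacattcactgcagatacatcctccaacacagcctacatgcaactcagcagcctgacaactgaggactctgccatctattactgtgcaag
ARGGNYFDY, LG, PBS-T 1: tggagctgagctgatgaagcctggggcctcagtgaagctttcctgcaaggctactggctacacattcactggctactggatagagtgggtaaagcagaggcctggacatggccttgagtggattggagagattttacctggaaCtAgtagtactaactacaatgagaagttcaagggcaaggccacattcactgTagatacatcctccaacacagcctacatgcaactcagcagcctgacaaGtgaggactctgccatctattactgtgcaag
ALGGDYFDY, LG, NOD-FMT 6: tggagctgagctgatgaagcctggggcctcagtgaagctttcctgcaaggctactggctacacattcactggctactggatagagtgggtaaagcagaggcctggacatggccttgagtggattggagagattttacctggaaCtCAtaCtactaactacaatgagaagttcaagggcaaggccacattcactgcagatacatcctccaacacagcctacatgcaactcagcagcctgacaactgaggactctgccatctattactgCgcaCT

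P_2G10 has IGHJ2 and the HCDR3 ARGGDYFDY of 9 residues. Across all libraries 25 nucleotide forms of 27 bases encoded it. The 4 lines below are the form with the most counts, 2 further forms of high count or wide occurrence, and the form seen in the LG of PBS-T 4. Capitals mark bases that differ from the first line.
Most counts, mainly NOD-FMT 8: gcaagagggggcgactactttgactac
Mainly NOD-FMT 6: gcaagaggAggGgactactttgactac
In spleens of 6 mice: gcaagagggggGgactactttgactac
LG of PBS-T 4 and spleen of NOD-FMT 6: gcaagaggCggGgactactttgactac

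After removal of identical sequences that occurred in more than 2 mice of a tissue, the LG libraries held 40105 to 264365 counts and the spleen libraries 71859 to 2032338. In the LG, 23 libraries held 560 to 2504 clonotypes, and the library of PBS-T 5 stood apart with 17213. The LG libraries of NC 2 and NC 3 shared 806 unique sequences, 22.1% of the smaller library, where the median pair of LG libraries shared 0.0263%. By counts, overlap with other mice was larger in NC 3. With sequences of 2 or more mice removed, NC 3 kept 4388 of its 76279 LG counts, and NC 2 kept 48769 of 64684. The tests below nevertheless take NC 2 and NC 3 as separate mice. PBS-T 5 shared 189 sequences with PBS-T 7 and 225 with NC 4, 8.81% and 7.69% of the smaller libraries. In these bulk libraries, fewer B cells of a kind and less heavy-chain RNA per cell cannot be told apart. Markers of the tissues themselves are not part of heavy-chain libraries and were not measured.

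IGHV1-9 held a near-constant part of the spleen repertoire in all groups. It made up 2.62 ± 0.13% of spleen clonotypes in NOD-FMT (SD, n = 10), 2.67 ± 0.15% in PBS-T (n = 9) and 2.67 ± 0.085% in NC mice (n = 5). The lowest of the 24 spleens was at 2.39% and the highest at 2.89%, and the groups overlapped. In the LG it was far more variable. NOD-FMT mice had 0.358% to 5.17% of LG clonotypes in this gene, with a median of 1.77% and a mean of 2.26 ± 1.55%. PBS-T mice had 1.64% to 10%, with a median of 2.76% and a mean of 3.50 ± 2.55%. The 5 NC mice had 3.88%, 1.87%, 1.74%, 1.06% and 2.78%, a mean of 2.27 ± 1.09%. The groups overlapped, and PBS-T 2 lay above every other library.

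By counts, which follow large clonotypes, the LG range widened further. NOD-FMT libraries ran from 0.0851% to 12.5% with a median of 0.575%, and PBS-T libraries from 0.726% to 53.1% with a median of 2.53%. The NC values were 12.2%, 0.640%, 1.08%, 0.0723% and 8.35%. In PBS-T 2, IGHV1-9 held 46814 of 88241 counts (95% Wilson interval 52.7% to 53.4%). Such intervals cover counting error alone. In the spleen, shares of counts lay between 1.77% and 4.36% after the filter. The lowest was PBS-T 6, whose total the filter cut from 215159 to 71859 counts. As deposited, 1297 of its 215159 counts were of IGHV1-9, a lower share.

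**Figure D1:**
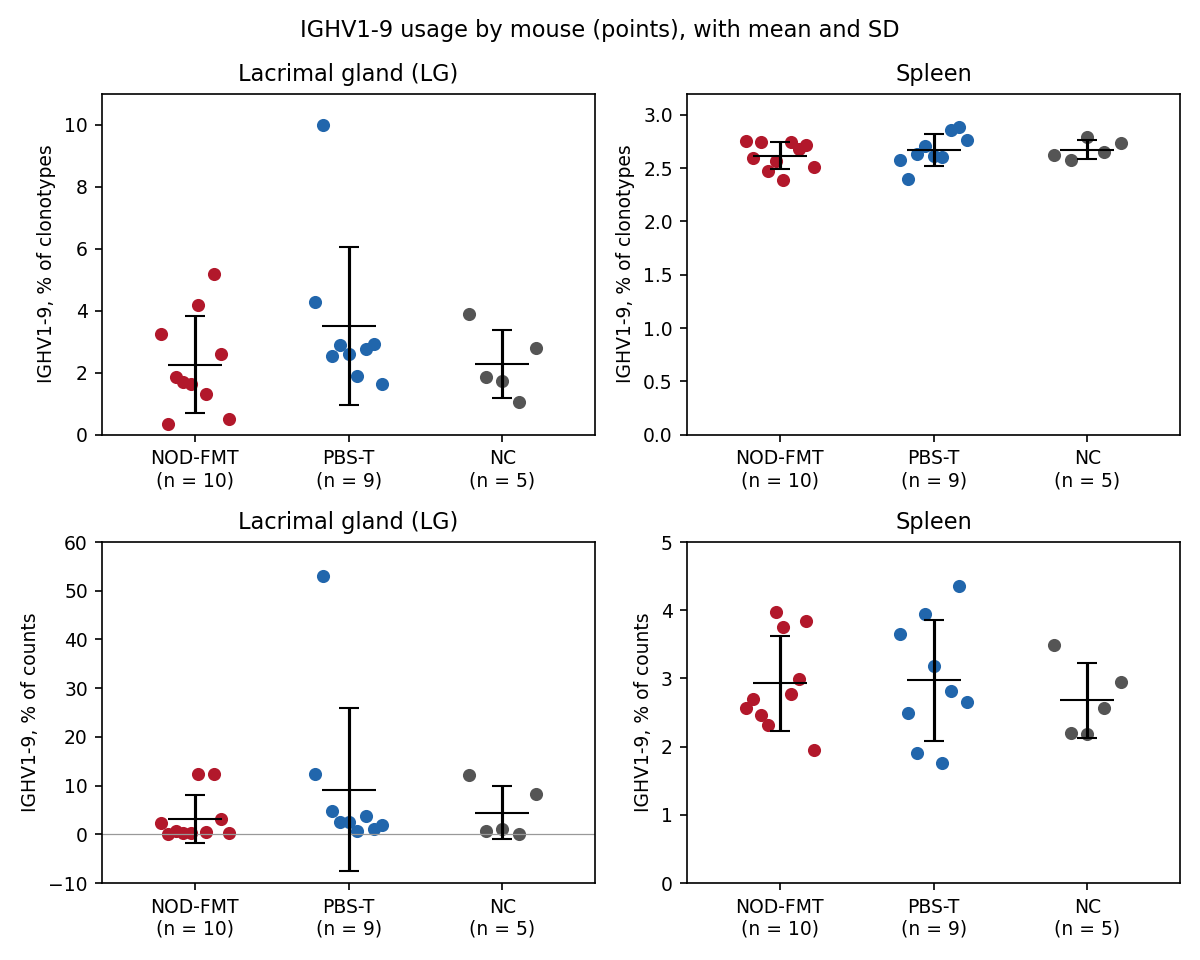
Share of IGHV1-9 among clonotypes (top) and counts (bottom) in the LG (left) and spleen (right), in percent. Each point is a mouse, and bars give mean and SD. Spleen shares of clonotypes lie between 2.39% and 2.89% in all groups, and LG shares spread from 0.358% to 10%.

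Whether microbiota transfer went with a change in IGHV1-9 usage was tested over mice, with every other IGHV gene in the same adjustment. In the LG, the share of clonotypes was 1.24 percentage points lower in NOD-FMT than in PBS-T mice (difference -1.24, exact permutation p = 0.224, adjusted p = 0.529). In that comparison 4 of 90 IGHV genes passed the threshold of adjusted p = 0.05, a background of 4.44%, and IGHV1-9 was not among them. Without PBS-T 2 the difference was -0.43 points (adjusted p = 0.732), and without PBS-T 5 -1.35 (adjusted p = 0.581). By counts the LG difference was -5.98 points (adjusted p = 0.745), and -0.50 without PBS-T 2 (adjusted p = 0.964). No gene passed by counts (0 of 90, 8 at an unadjusted p under 0.05). Among the LG libraries whose files were marked as merged, 6 of NOD-FMT and 4 of PBS-T mice, the difference in clonotypes was 0.0062 points, and in the LG libraries without that mark -2.70 (exact permutation, adjusted p = 0.990 and 0.470).

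In the spleen, the difference was -0.053 points of clonotypes (adjusted p = 0.846) and -0.043 points of counts (adjusted p = 0.997). There, 1 of 112 genes passed by clonotypes (0.893%), and 0 of 112 by counts (12 at an unadjusted p under 0.05). Against NC mice, LG clonotype shares differed by -0.011 points for NOD-FMT (adjusted p = 0.990) and by 1.23 points for PBS-T (adjusted p = 0.768). The background was 5 of 85 genes (5.88%) for NOD-FMT and 0 of 94 for PBS-T, with 6 at an unadjusted p under 0.05. Without NC 2 these LG differences were -0.11 and 1.13 points, and without PBS-T 2 the second was 0.42. Spleen differences from NC were -0.056 points for NOD-FMT and -0.0036 for PBS-T (exact permutation, adjusted p = 0.979 and 0.973). There, 0 of 113 and 0 of 112 genes passed (8 and 3 at an unadjusted p under 0.05).

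The LG and spleen of the same mouse did not differ in IGHV1-9 usage by this test. The mean within-mouse difference was 0.078 points of clonotypes (sign-flip permutation p = 0.886, adjusted p = 0.912), and 9 of 24 mice were higher in the LG. Without PBS-T 2 it was -0.25 points (adjusted p = 0.445), and without NOD-FMT 8 -0.027 (adjusted p = 0.984). In this comparison 38 of 102 IGHV genes passed (37.3%), among them 17 of the 48 IGHV1 genes tested. By group, the LG minus spleen difference was -0.36 points in NOD-FMT (higher in the LG in 3 of 10), 0.83 in PBS-T (4 of 9) and -0.40 in NC mice (2 of 5), and no adjusted p of the exact sign-flip tests was below 0.660. The PBS-T difference was -0.016 points without PBS-T 2 (exact sign-flip, adjusted p = 0.958). With 5 NC mice the smallest possible p was 0.0625.

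By mean share of clonotypes, IGHV1-9 ranked 8 in both tissues, of 141 genes seen in the LG and 136 in the spleen. Its neighbours in the LG order were IGHV1-22 (2.99 ± 2.91%) and IGHV1-18 (2.48 ± 1.12%), both within the spread of IGHV1-9 (2.73 ± 1.94%). In the spleen they were IGHV3-6 (2.83 ± 0.34%) and IGHV1-69 (2.63 ± 0.19%). IGHV1-69 lay within the spread of IGHV1-9 (2.65 ± 0.13%), and the mean of IGHV3-6 was higher by more than that SD but by less than its own. By counts IGHV1-9 ranked 3 in the LG, with a mean of 5.73 ± 10.998%, a rank that rested on PBS-T 2. Without that mouse the mean was 3.67 ± 4.50% and the rank 6, and the median of its ranks in single LG libraries was 12. In the spleen it ranked 7 by counts, with 2.90 ± 0.73%. Some of the other panned clones used IGHV7-3, IGHV1-26 and IGHV1-53. IGHV1-26 and IGHV1-53 were the genes with the highest shares of clonotypes in both tissues. In the LG, the NOD-FMT minus PBS-T difference was 0.87 points for IGHV7-3, -0.90 for IGHV1-26 and 0.092 for IGHV1-53 (exact permutation, adjusted p = 0.47, 0.705 and 0.952). Between tissues, all 3 passed the sign-flip permutation test, which IGHV1-9 did not. IGHV7-3 was 1.10 points higher in the LG (adjusted p = 0.00076), IGHV1-53 1.15 points higher (adjusted p = 0.0145), and IGHV1-26 had a difference of -1.48 points (adjusted p = 0.0231). Over the 24 LG libraries, the shares most like those of IGHV1-9 were of IGHV1-69 (Pearson r = 0.66), IGHV1-80 (0.59) and IGHV1-47 (0.53), of 91 genes. Over the 24 spleens they were of IGHV14-1 (0.55), IGHV1-7 (0.53) and IGHV1-50 (0.52), of 112 genes. These are descriptions, since all shares of a library have the same denominator.

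IGHV1-9 carried more V mutations and shorter HCDR3 than the other IGHV genes of the same library, in both tissues. In the LG, unique IGHV1-9 sequences had a mean of 3.12 ± 1.50 V mutations, against 2.08 ± 0.68 for the other genes (SD over 24 mice). The difference of 1.03 held in direction in 18 of 24 mice (sign-flip permutation, adjusted p = 0.0021). In the spleen the means were 1.61 ± 0.83 and 1.16 ± 0.43, a difference of 0.44, also in 18 of 24 mice (adjusted p = 0.00012). Mean HCDR3 length was 10.9 ± 0.76 residues in the LG against 11.6 ± 0.30 for the other genes, a difference of -0.75 (adjusted p = 5.3e-05), and IGHV1-9 was the longer in 2 of 24 mice. In the spleen it was 11.3 ± 0.17 against 11.5 ± 0.18 residues, a difference of -0.18, and IGHV1-9 was the longer in 0 of 24 (adjusted p = 4e-05). With sequences of 1 count left out, the LG difference in mutations was 0.60 and no longer passed (adjusted p = 0.0771).

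**Figure D2:**
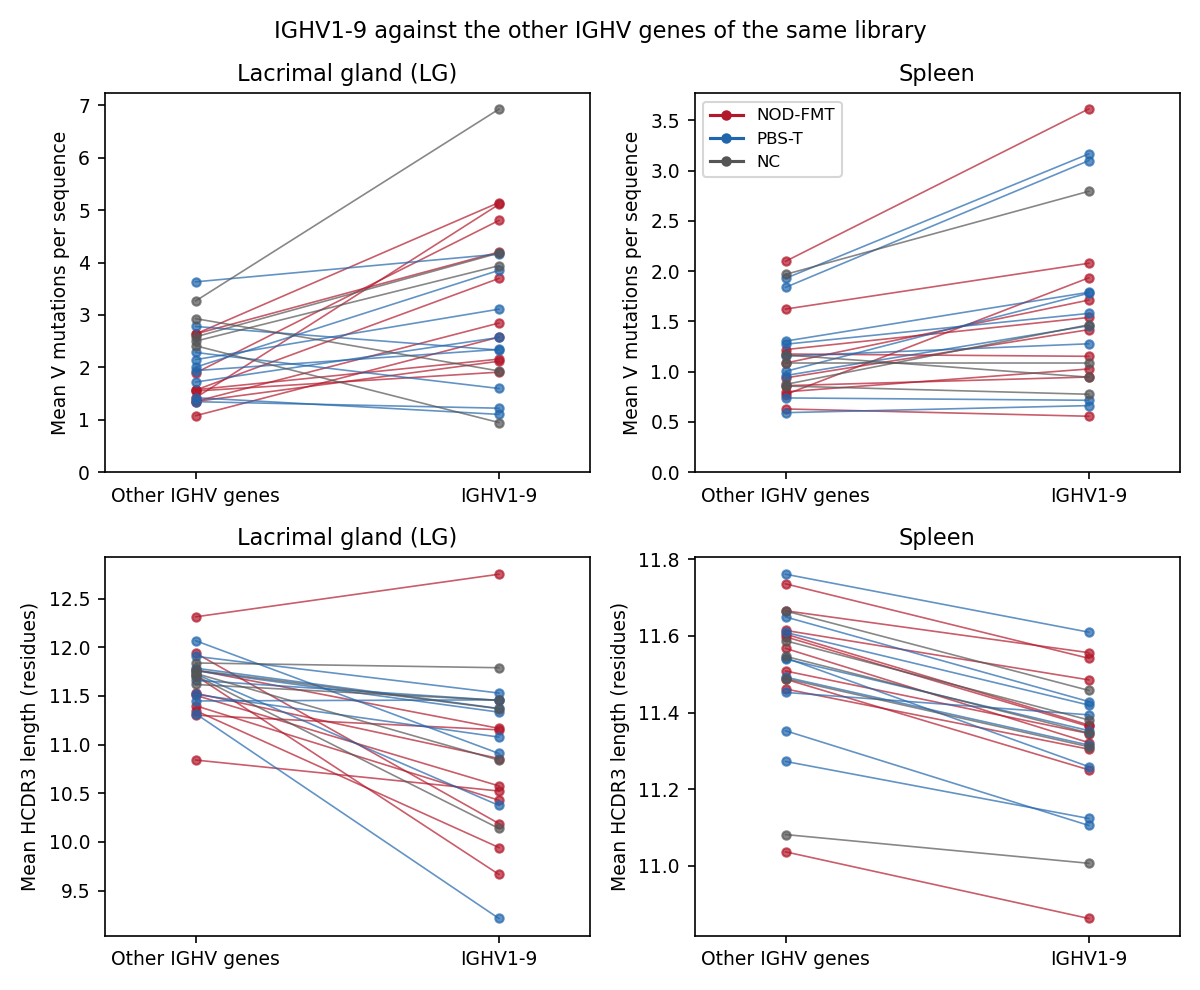
Mean V mutations per unique sequence (top) and mean HCDR3 length in residues (bottom, axis not from 0) of IGHV1-9 and of all other IGHV genes, in the LG (left) and spleen (right). Each line joins the values of 1 library. Mutations were higher in IGHV1-9 in 18 of 24 libraries of each tissue, and HCDR3 was longer in 2 LG libraries and in 0 spleens.

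The HCDR3 of 9 residues, the length of P_2G10, was the most frequent length of IGHV1-9 in the LG by the mean over all mice. It made up 22.6 ± 16.4% of LG IGHV1-9 clonotypes per mouse (0 to 60.0%, median 18.5%), against 7.27 ± 1.68% for the other genes. By group the mean was 29.01% in NOD-FMT, 18.02% in PBS-T and 18.2% in NC mice, and in NC mice 11 residues was more frequent, at 21.4%. In the spleen the shares were 9.44 ± 0.96% and 8.001 ± 0.48%, and 11 residues was the most frequent length of both. These shares were chosen after the lengths had been seen and carry no test.

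**Figure D3:**
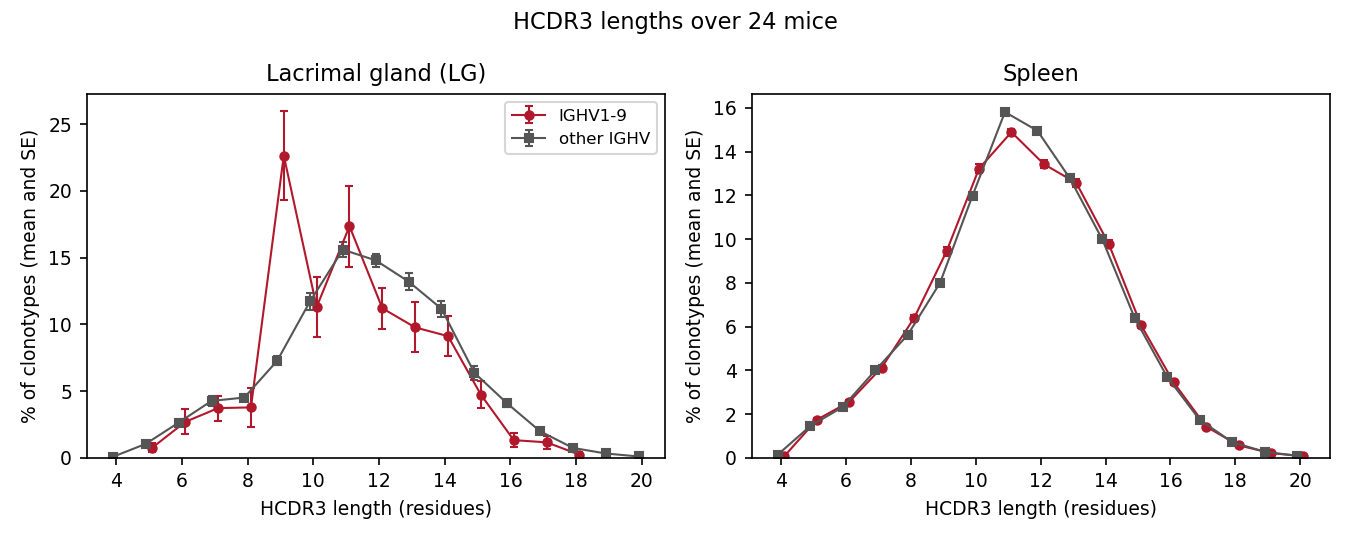
HCDR3 length in residues (horizontal axis) and the percent of clonotypes of each length (vertical axis), mean and SE over 24 mice, for IGHV1-9 (red) and all other IGHV genes (grey). In the LG, IGHV1-9 peaks at 9 residues with 22.6% against 7.27%, and in the spleen both peak at 11.

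By the mean over all mice, IGHV1-9 clonotypes used IGHJ2 most often in both tissues. In the spleen IGHJ2 made up 35.9 ± 1.2%, IGHJ3 27.5 ± 1.18%, IGHJ4 24.4 ± 1.56% and IGHJ1 12.2 ± 1.00%. The IGHJ2 share exceeded that of the other genes by 1.78 points in 22 of 24 spleens (sign-flip permutation, adjusted p = 4e-05). Against the other IGHV1 genes alone the direction was reversed, at -0.63 points (adjusted p = 0.0292), and with clonotypes of 1 count left out the difference was 0.68 points (adjusted p = 0.344). In the LG the IGHJ2 share was 35.0 ± 14.3% against 34.2 ± 3.67%, a difference of 0.82 points that did not pass (adjusted p = 0.780). It was highest in PBS-T 2, at 76.8%. In the LGs of NC mice IGHJ4 was the most used, with a mean of 39.8% against 29.8% for IGHJ2.

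IgA dominated IGHV1-9 in the LG, with 89.0 ± 21.02% of its counts, and the other genes had 88.2 ± 20.4% (difference 0.83 points, adjusted p = 0.769). In 2 LG libraries IgA was in the minority. PBS-T 9 had 9.72% IgA in IGHV1-9 and 13.98% in the other genes, and PBS-T 2 had 44.3% and 40.0%. In the spleen IgM was the main isotype of IGHV1-9, at 64.7 ± 16.7%, and IgA had 18.3 ± 17.8% against 11.6 ± 5.22% in the other genes. That difference of 6.73 points did not pass (sign-flip permutation, adjusted p = 0.0743), and was higher in 14 of 24 mice. Over sequences in place of counts it was 3.08 points and passed (sign-flip permutation, adjusted p = 0.0193), as did the difference by counts without NC 3 or without NC 4 (7.45 points, adjusted p = 0.049 in both). With HCDR3 that open with Ala-Arg-Gly-Gly left out of all genes, it was -1.87 points (adjusted p = 0.331). The spleens of NOD-FMT 6 (67.0%), PBS-T 4 (57.3%) and PBS-T 1 (51.4%) had the highest IgA shares of IGHV1-9. The other genes of these spleens had 11.8%, 16.2% and 16.5%.

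None of the 8 comparisons of mutations, HCDR3 length, IGHJ2 and IgA of IGHV1-9 between NOD-FMT and PBS-T mice, 4 in each tissue, passed after adjustment. The lowest p was for the LG IgA share, 97.6 ± 2.51% in NOD-FMT (n = 10) against 77.6 ± 31.1% in PBS-T (n = 9), a difference of 20.0 points (exact permutation p = 0.0157, adjusted p = 0.157). Without PBS-T 9 it was 11.5 points. The other IGHV genes of the same libraries had 96.7 ± 1.36% and 74.7 ± 29.3% IgA, a gap in the same direction. LG mutations were 3.46 ± 1.29 against 2.48 ± 1.09 (adjusted p = 0.468), and LG HCDR3 lengths 10.7 ± 0.86 against 10.97 ± 0.75 residues (exact permutation, adjusted p = 0.95). In the spleen, mutations were 1.60 ± 0.85 against 1.73 ± 0.90 and IgA shares 19.7 ± 19.3% against 19.5 ± 20.7% (exact permutation, adjusted p = 0.95 and 0.983). The NC mice had 3.59 ± 2.31 mutations and 92.5 ± 9.71% IgA in the LG.

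P_2G10 had its highest shares in 2 NOD-FMT mice, and was found at low counts in mice of every group. It is described with no test, because it was recovered from spleens of the NOD-FMT mice themselves. In the LG of NOD-FMT 8 it held 7320 of 92606 counts, 7.90% (95% Wilson interval 7.73% to 8.08%), over 222 unique sequences that were all IgA, and was the largest IGHV1-9 clonotype there. NOD-FMT 6 had 26 LG counts (0.0485%), and NOD-FMT 3 had 1. Of the PBS-T LG libraries, PBS-T 4 had 7 counts (0.0121%) and PBS-T 2 had 1. The other 7 NOD-FMT, 7 PBS-T and 5 NC LG libraries had 0 counts, which allows shares of up to 0.0075% at the depth of the shallowest of them.

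In the spleen, NOD-FMT 6 had 1990 counts of P_2G10 (0.805%, interval 0.771% to 0.841%) and NOD-FMT 8 had 1643 (0.398%, 0.379% to 0.418%). NOD-FMT 9 had 133 counts, NOD-FMT 2 had 28, NOD-FMT 1 had 2 and NOD-FMT 5 had 1. PBS-T 5 had 14 counts, and PBS-T 1 and PBS-T 9 had 1 each. NC 4 had 40 counts (0.0116%) and NC 3 had 5. The clonotype was thus present in 6 of 10 NOD-FMT, 3 of 9 PBS-T and 2 of 5 NC spleens, and above 10 counts in 4, 1 and 1 of them. Presence depends on depth, and mean spleen totals were 562111, 335342 and 375890 counts in these groups. A count of 0 allows up to 0.0042% in the shallowest spleen (PBS-T 6), above the 0.0039% of PBS-T 5. IgA held 97.9% of the P_2G10 counts in NOD-FMT 6, 83.0% in NOD-FMT 8 and 97.0% in NOD-FMT 9. In the other groups, 11 of the 14 counts of PBS-T 5 and 3 of the 5 of NC 3 were IgA. None of the 40 counts of NC 4 was IgA and 20 were IgM. The 1 count of PBS-T 1 was IgA and that of PBS-T 9 was IgM. The sequences of P_2G10 carried a mean of 4.10 V mutations in the LG of NOD-FMT 8, 4.28 in that spleen and 4.95 in the spleen of NOD-FMT 6. The spleen means of PBS-T 5 (4.36 over 11 sequences), NC 3 (4.5 over 4) and NC 4 (4.2 over 10) lay in the same range. The 1 spleen sequence of PBS-T 1 had 4 mutations and that of PBS-T 9 had 0.

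The sequences of the mice with high counts were not the same. Positions below count from 1 at the first base of the germline stretch. The most frequent LG sequence of NOD-FMT 8 (3844 counts) had C61T, C63T and A68C, which leave CDR2 in its germline form and change 2 residues of CDR1. The same V part was the most frequent in the spleen of that mouse (605 counts), and its LG and spleen shared 22 of 223 and 232 unique P_2G10 sequences as deposited. The most frequent spleen sequence of NOD-FMT 6 (276 counts) had C76T, G144C, T148A and A264C, and its HCDR3 was the second form printed above. None of its 3 LG and 238 spleen sequences was in both tissues, but 3 LG sequences leave little room to see overlap. All but 1 of the 26 LG counts of P_2G10 in NOD-FMT 6 had that same second HCDR3 form. The LG sequence of PBS-T 4 had no substitution in the printed stretch. The filter on shared sequences removed 1137 counts of P_2G10 from the LG of NOD-FMT 8, all of 1 sequence that also occurred with 1 count each in NOD-FMT 4 and NOD-FMT 7. Without the filter the clonotype held 8.71% of that library, and 5 NOD-FMT LG libraries had it. With sequences of 2 or more mice removed it held 4.60%, since the sequence of 3844 counts also had 1 count in NOD-FMT 3. Whether such single counts passed between libraries was not tested.

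By counts, the HCDR3 of P_2G10 with IGHJ2 was mostly joined to IGHV1-9. In the LG this gene held 99.9% of all counts with that HCDR3 and IGHJ2, 7320 of its 7355 counts in NOD-FMT 8, and the other 4 genes had 1 or 2 counts each. In the spleen IGHV1-9 held 92.5%, most of it in NOD-FMT 6 and NOD-FMT 8, and 45 further genes shared the rest. Next were IGHV3-1 (134 counts in 5 mice) and IGHV1-26 (42 counts in 7 mice). By occurrence the HCDR3 was not particular to IGHV1-9 in the spleen. It was in 11 spleens with this gene and in 22 with at least 1 other gene.

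Clonotypes 1 residue away from P_2G10, with IGHV1-9 and IGHJ2, were present in all groups. There were 16 of them in the LG and 37 in the spleen. In the LG, 6 of 10 NOD-FMT, 3 of 9 PBS-T and 1 of 5 NC mice had at least 1, and in the spleen 9 of 10, 7 of 9 and 4 of 5. As a share of LG IGHV1-9 clonotypes they made up 4.76 ± 7.53% in NOD-FMT and 1.2 ± 1.86% in PBS-T mice, a description with no test because the set is built around P_2G10. NOD-FMT 8 had the highest share, 24.3%, and without it the difference was 1.39 points in place of 3.56. Of its 9 neighbours in that gland, none had more than 5 counts. In the spleen the shares were 0.14 ± 0.14% and 0.085 ± 0.061%.

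The neighbour held by most mice had Asn in place of Asp at position 5, the HCDR3 ARGGNYFDY. It was in 6 LG libraries and 14 spleens. In the LG it held 22.4% of the counts of PBS-T 2 (19729 counts, interval 22.1% to 22.6%), 7.83% of PBS-T 1 and 1.89% of NC 1. In NOD-FMT glands it had 194 counts in mouse 6 (0.362%), 11 in mouse 7 and 2 in mouse 4. In the spleen its highest shares were 0.820% in NOD-FMT 6, 0.643% in PBS-T 1 and 0.335% in PBS-T 2, and it was in 5 NOD-FMT, 6 PBS-T and 3 NC spleens. In the LG its 3 largest amounts were thus in PBS-T and NC mice, whereas P_2G10 was largest there in a NOD-FMT mouse.

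The other neighbours held by most spleens were ARGGYYFDY (10 mice, 17 counts in all), ARGGHYFDY (4 mice, 42 counts), ARRGDYFDY (4 mice, 4 counts) and ARGGEYFDY (3 mice, 295 counts). ARGGDFFDY, ARWGDYFDY and ARGGSYFDY were also in 3 spleens, with fewer counts. Position 5 was changed in 9 of the 37 spleen neighbours, position 3 in 8 and position 4 in 7. Of the 6210 spleen counts with a change at position 5, 5843 were of ARGGNYFDY. In the LG, positions 2 and 5 were changed in 4 neighbours each. ALGGDYFDY, changed at position 2, was almost confined to NOD-FMT 6, where it held 5531 LG counts (10.3%) and 717 spleen counts (0.290%). The only other mouse with it in the LG was NOD-FMT 1, with 1 count.

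**Figure D4:**
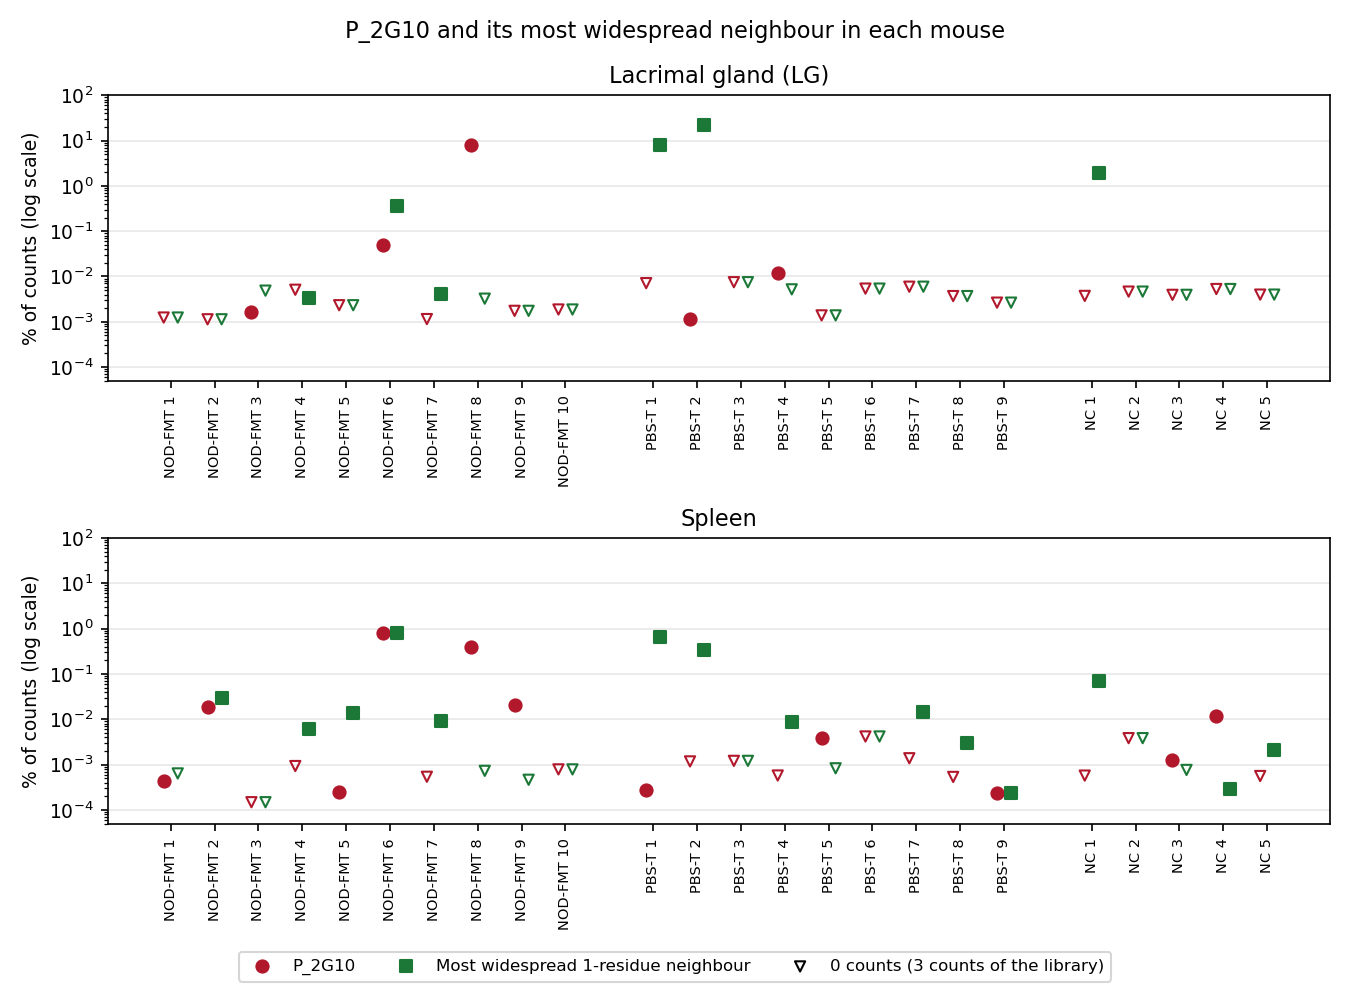
Share of counts, in percent on a log scale, of P_2G10 (red circles) and of its most widespread 1-residue neighbour (green squares) in each mouse, in the LG (top) and spleen (bottom). Open triangles stand at the share that 3 counts would have in a library with 0 counts. P_2G10 is highest in NOD-FMT 8 (7.90% of the LG) and NOD-FMT 6 (0.805% of the spleen), and the neighbour in PBS-T 2 (22.4% of the LG).

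P_2G10 and its widespread neighbour open with the residues Ala-Arg-Gly-Gly (ARGG), and this opening was frequent in IGHV1-9 in general. The opening was singled out after the values had been seen, so it is described with no test. In the LG, 19.3 ± 13.2% of IGHV1-9 clonotypes opened with ARGG, against 3.86 ± 1.56% of the clonotypes of other genes, and IGHV1-9 was higher in 23 of 24 libraries. By counts the shares were 36.5 ± 37.3% and 5.10 ± 7.95%. In the spleen they were 3.98 ± 0.56% and 2.81 ± 0.15% of clonotypes, higher in IGHV1-9 in 24 of 24 libraries, and 17.4 ± 15.8% and 3.08 ± 1.31% of counts. The largest IGHV1-9 clonotype of a library opened with ARGG in 9 LG libraries and 10 spleens, and the largest clonotype of the other genes in 1 and 1. By group, the LG share of IGHV1-9 clonotypes was 23.4 ± 16.4% in NOD-FMT, 15.5 ± 6.87% in PBS-T and 18.1 ± 14.95% in NC mice. The spleen shares were 3.97 ± 0.51%, 4.02 ± 0.72% and 3.91 ± 0.46%. For this share IGHV1-9 ranked 3 of the 74 genes with at least 100 clonotypes in the LG, and 29 of 103 in the spleen.

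**Figure D5:**
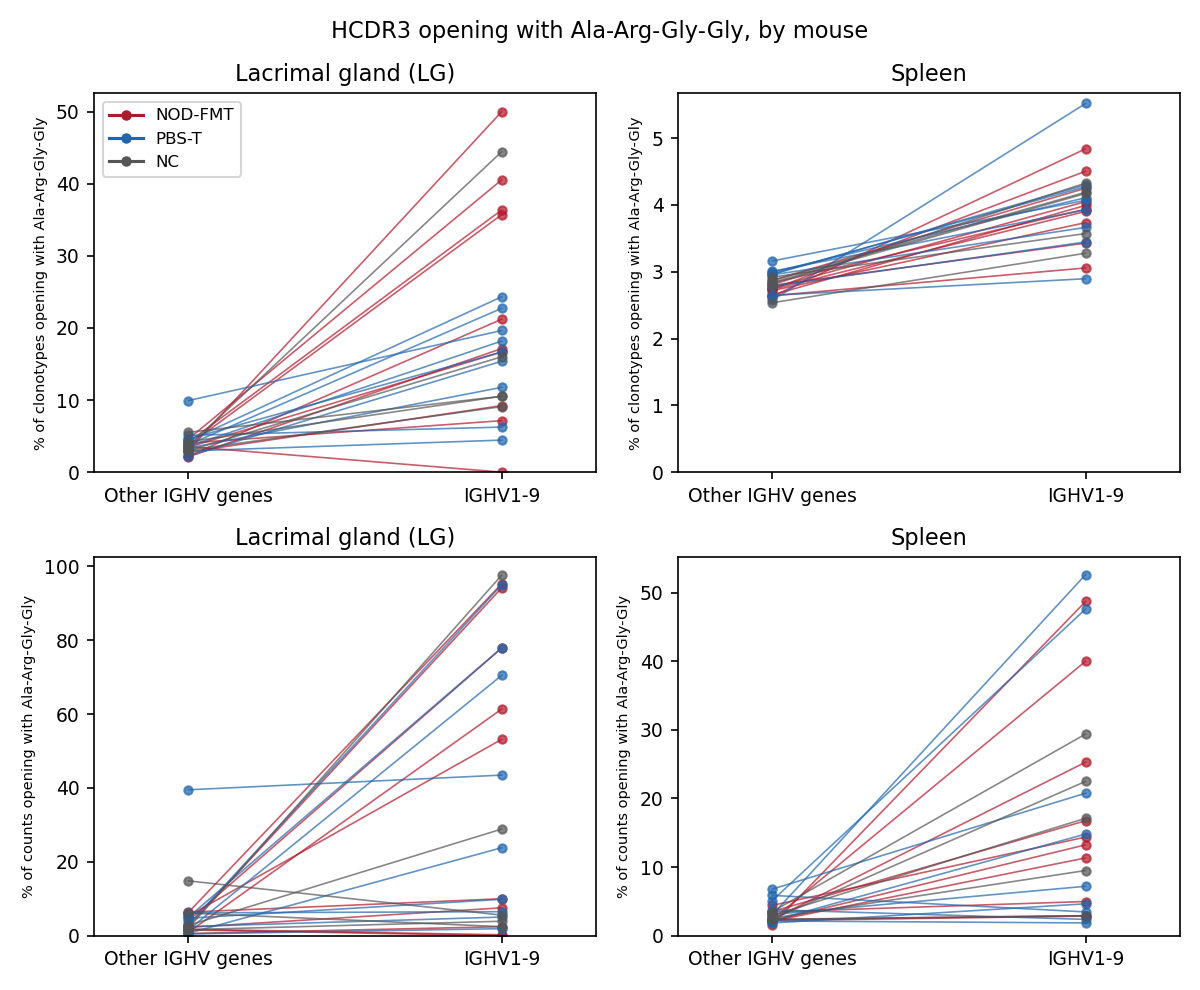
Percent of clonotypes (top) and of counts (bottom) whose HCDR3 opens with Ala-Arg-Gly-Gly, in IGHV1-9 and in all other IGHV genes, in the LG (left) and spleen (right). Each line joins the values of 1 library. IGHV1-9 is higher by clonotypes in 23 of 24 LG libraries and in 24 of 24 spleens, in all 3 groups.

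In the spleen, IGHV1-9 sequences with this opening were more mutated and more often IgA than the rest of the gene. They had a mean of 2.99 ± 1.19 V mutations against 1.43 ± 0.84, higher in 23 of 24 mice. IgA had 47.5 ± 26.6% of their counts against 9.58 ± 8.76%, again higher in 23 of 24. In the LG the mutations were 3.03 ± 1.70 against 2.85 ± 1.45, higher in 12 of the 23 libraries that had such sequences. With this opening left out of all genes, an alternative added after the data had been seen, IGHV1-9 still had more mutations than other genes in the LG (0.81, adjusted p = 0.0034) and spleen (0.27, adjusted p = 0.00645). Its HCDR3 also stayed shorter (-0.51 residues in the LG, sign-flip permutation, adjusted p = 0.0004).

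The base change G144C, which turns Ser into Thr at position 5 of CDR2 (germline ILPGSGST), recurred in the printed sequences of ARGGNYFDY, ALGGDYFDY and the P_2G10 of NOD-FMT 6. It was looked up across the gene after it had been seen there. In the spleen, Thr stood at this position in 66.9% of 526 P_2G10 sequences, in 9 of the 11 mice with the clonotype. NOD-FMT 6 gave 238 of these, at 94.5% Thr, and without it Thr had 44.1% of 288. Thr stood there in 67.8% of 2829 sequences of the other IGHJ2 clonotypes of 9 residues that open with ARGG, in 21 of 24 mice. It stood in 2.05% of the 119687 other IGHV1-9 sequences. In the LG the shares were 18.9% of 227, 77.1% of 763 and 16.9% of 4150 sequences. The LG sequences of P_2G10 were mostly of NOD-FMT 8, whose most frequent sequence kept Ser, and most of the 763 were of PBS-T 2, without which Thr had 60.6% of 251. With each mouse weighted equally, Thr in that second set had 48.5% over 15 LGs and 48.4% over 24 spleens, against 14.7% and 2.19% in all other IGHV1-9 sequences. In P_2G10 it had 43.5% over 5 LGs and 58.7% over 11 spleens by this weighting. Thr at position 5 of CDR1 (germline GYTFTGYW) was replaced in part of the P_2G10 sequences too. It stayed in 41.7% of them in the LG and in 52.7% in the spleen. Pro stood there in 40.8% of the LG sequences of P_2G10, in 2 mice, and in 22.2% of its spleen sequences, in 3 mice. NOD-FMT 8 gave 222 of the 228 LG sequences, and without it Pro had 16.7% of 6. With each mouse weighted equally, Pro had 28.3% over 5 LGs and 9.80% over 11 spleens. In the other IGHJ2 clonotypes of 9 residues that open with ARGG, Thr stayed in 57.8% of 760 LG and 50.2% of 2818 spleen sequences. Pro stood there in 3.95% and 19.8% of them. The LG share of Pro was 7.14% without PBS-T 2. In the spleen Pro was in 12 mice and mostly in PBS-T 4, without which the share was 10.4%. With each mouse weighted equally, Pro in this set had 14.8% over 15 LGs and 7.77% over 24 spleens. In all other IGHV1-9 sequences, pooled over mice, the shares of Pro were 0.645% in the LG and 0.325% in the spleen. Sequences of 1 clonotype in 1 mouse share their origin and are no replicates of each other.

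Large IGHV1-9 clonotypes, those above 1% of the counts of a library, numbered 19 in the LGs of 12 mice and 2 in the spleens. In the LG, 11 of the 19 opened with ARGG, 9 had IGHJ2, 9 had 9 residues, and IgA held over 90% of the counts of 16. The largest was YYGSSFDY with IGHJ2 in PBS-T 2, with 29.0% of counts, a mean of 1.13 V mutations and 0.0468% IgA. Next were ARGGNYFDY in the same gland, ALGGDYFDY in NOD-FMT 6, P_2G10 in NOD-FMT 8 and ARGGNYFDY in PBS-T 1. NC 1 had 3 of the 19, ARGGSGYFDY with IGHJ2 (7.47%), ARGGDFFAY with IGHJ3 (2.50%) and ARGGNYFDY (1.89%), and NC 5 had ARRLFYYPLDY with IGHJ4 (6.86%). NOD-FMT 8 had ARGGDFFAC (1.94%) and ARGGDLFPY (1.21%), both with IGHJ3, beside P_2G10. PBS-T 1 had GYSSYWYFDV with IGHJ1 (2.12%) and ARGGGSFYYAMDY with IGHJ4 (1.76%) beside ARGGNYFDY.

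Of the others, PBS-T 3 had ARGGAHFYAMDY (4.59%), PBS-T 7 had ARWGYYYAMDY (3.59%) and PBS-T 9 had ARWRLSYAMDY (1.45%), all with IGHJ4. NOD-FMT 1 had ARWYYGSSNY (1.99%) and PBS-T 4 had ARWGSNYFDY (1.50%), both with IGHJ2, and NOD-FMT 9 had ARGGDWFAY with IGHJ3 (1.65%). None of the ARWRLSYAMDY counts was IgA. The 2 large spleen clonotypes had IGHJ2. ARGGNFFDY held 1.66% of PBS-T 4, with a mean of 6.22 V mutations and 98.0% IgA, and was in 10 spleens in all. ARGYYGSSKYFDY held 1.19% of PBS-T 5, with 1.29 mutations and 0.0927% IgA.

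Of the 19 large LG clonotypes, 18 also occurred in the spleen of the same mouse. The share for large clonotypes of the other genes is not given here, so this count is no trait of IGHV1-9. Over all sizes, 210 of 1016 LG occurrences of IGHV1-9 clonotypes were found in the mouse's own spleen. The mean per mouse was 36.7 ± 19.3% of IGHV1-9 clonotypes and 33.3 ± 12.9% of those of other genes, and IGHV1-9 was higher in 14 of 24 mice. By counts, which follow large clonotypes, the direction was the other way, with 77.2 ± 30.3% for IGHV1-9 and 84.8 ± 18.1% for other genes. By group the IGHV1-9 share of clonotypes was 44.9 ± 14.7% in NOD-FMT, 32.4 ± 24.8% in PBS-T and 28.2 ± 11.4% in NC mice. The other genes had 33.5 ± 8.65%, 33.2 ± 18.7% and 33.0 ± 9.67%. By counts the IGHV1-9 shares were 85.2%, 63.4% and 86.0%, and those of the other genes 89.3%, 78.5% and 87.1%. PBS-T 5 had the lowest share of IGHV1-9 clonotypes, 1.56%. These shares depend on the depth of the spleen library and were not tested.

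Few IGHV1-9 clonotypes were held by several mice. Of 941 distinct LG clonotypes 5.95% were in 2 or more mice, and of 84998 in the spleen 5.72%, against 6.01% and 6.06% for the other genes. In the LG, the clonotypes held by most mice were ARGGNYFDY (6 mice), P_2G10 (5 mice) and, in 4 mice each, ARGGDLFAY and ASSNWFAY with IGHJ3 and AKGSGTLYYAMDY with IGHJ4. Of the counts of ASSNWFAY, 400 of 404 were of 1 mouse, and of AKGSGTLYYAMDY 380 of 384. Whether the few counts in the other mice passed between libraries was not tested. In the spleen the most held were ARSGYYAMDY with IGHJ4 (20 mice), ARELFAY with IGHJ3 (18) and ARGDY with IGHJ2 (17), each in all 3 groups. ARGDY had a median of 1 count in the spleens that held it.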

How the data were processed

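BCR heavy-chain libraries of LG and spleen from 24 mice were analysed, 24 per tissue. Per the study's methods, the authors merged read pairs with PEAR, kept reads of high base quality, built consensus sequences from molecular identifiers with Clustal Omega, without singletons, and annotated them with IgBLAST and the IMGT constant genes. The deposited counts are whole numbers of consensus sequences per unique sequence, not normalized. The deposited mutation field counts differences from the germline V gene. The germline set used is not given in the sources used here.

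Groups came from the sample titles. Following the wording of the study's methods, a nucleotide sequence was dropped from a tissue once over 2 mice held it. This took 9.83% of LG and 9.84% of spleen counts, and 2.18% and 3.29% of IGHV1-9 counts. The study states smaller shares for its own filter on the same starting totals, so the 2 filters differ. Single libraries lost more, and the LG total of PBS-T 5 fell from 360216 to 216868 counts. The spleen total of PBS-T 6 fell from 215159 to 71859. Keeping a shared sequence in the mouse of highest count, an alternative run for usage between NOD-FMT and PBS-T and for P_2G10, took 0.245% and 3.58%. Removing sequences of 2 or more mice, a stricter alternative, took 25.3% of LG and 15.6% of spleen counts. Shares per library were compared over mice. Groups of mice were set against each other by a two-sided exact permutation test of the difference of means (92378 splits for NOD-FMT and PBS-T, 3003 and 2002 against NC), for every IGHV gene in at least 50% of the libraries compared. LG and spleen of a mouse, and IGHV1-9 and the other genes of a library, were compared by two-sided sign-flip permutation with 100000 seeded draws, whose smallest p is 1e-05, or by all flips within a group. P-values were adjusted by Benjamini-Hochberg over the genes of a comparison, over 10 properties between groups and over 8 within libraries, with a threshold of 0.05. The 10 include the share of neighbours of P_2G10 in each tissue, whose p is not printed because P_2G10 came from NOD-FMT spleens. The tests were checked on simulated data modelled on the spleen shares, which does not cover the sparser LG shares. Where a library had 0 counts, the limit printed is 3 counts over its total. The HCDR3 of P_2G10 was read from a picture in the study's supplement. The germline sequence was taken from the GENCODE M21 transcript of the gene. No row named a second IGHV gene. A near-identical gene that took reads of IGHV1-9 in the authors' annotation would not be seen.

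The gene, the clonotype and the lists were chosen with earlier results of these data known. Clonotypes named were P_2G10 and every IGHV1-9 clonotype above 1% of any library. To these came the 3 held by most mice in each tissue and the 5 neighbours of P_2G10 held by most spleens. Ties were broken by total counts, and further clonotypes tied with the last of these are named too. Other genes named were those of panned clones that the study also found in the repertoires, the neighbours in order of level and the 3 whose shares were most like those of IGHV1-9 in each tissue. Replicate numbers do not pair mice of different groups, since nothing in the labels ties them. LG and spleen of 1 mouse were paired by group and number. Labels call the mice biological replicates. Scripts ran in Python 3.11.15 (SciPy 1.17.1, Matplotlib 3.10.9, pandas 2.3.3, NumPy 2.4.6).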

Additional observations from a re-analysis of the deposited data

Results flagged for a closer look

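Within groups of 5, 9 or 10 mice, 11 of the 42 groups and measures tested had a sample whose gap to the nearest other passed Dixon's 95% value. Chance gives this in about 1 of 20 where values are normally distributed. Several of these shares are skewed or 0 in many mice, so that rate does not measure how unusual 11 of 42 is. In the LG, PBS-T 2 stood apart with 10% of clonotypes and 53.1% of counts in IGHV1-9 and with a mean HCDR3 of 9.21 residues. NOD-FMT 5 had a mean LG HCDR3 of 12.8 residues (12.75) over 12 IGHV1-9 clonotypes. NC 1 had 55.6% of its LG IGHV1-9 clonotypes in IGHJ2, where the next NC mouse had 27.3%, and 5.56% of them were 1-residue neighbours of P_2G10, where the other NC mice had 0. NOD-FMT 8 had 24.3% of its LG clonotypes of the gene in such neighbours. NOD-FMT 10 had the lowest LG IgA share of its group, 91.8%. In the spleen, NOD-FMT 2 had a mean of 3.62 V mutations and an HCDR3 of 10.9 residues, and NOD-FMT 6 had 67.0% IgA in IGHV1-9. No measure of usage, mutations, HCDR3 length, IGHJ2 or IgA had a NOD-FMT minus PBS-T difference that differed between LG and spleen by permutation. The lowest p was 0.0749, for mutations, with an adjusted p of 0.381.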

How the results depend on the processing

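Of 732 values recomputed for 30 results under other settings, 647 kept their direction and their side of the threshold. For the shares of P_2G10, which have no test, a value was kept if it moved by less than the counting error. In 71 values the direction turned, all but 1 of them in results that had not passed the test. The 5 results that passed were the within-library differences of IGHV1-9 from other genes in mutations and HCDR3 length in both tissues and in IGHJ2 in the spleen. The HCDR3 differences and the spleen mutations passed in every setting run. With only sequences or clonotypes of 2 or more counts, the LG difference in mutations was 0.599 (adjusted p = 0.0771) and that in spleen IGHJ2 0.678, which do not pass. The same setting gave -3.75 points for LG IGHJ2, 0.224 and -0.0337 residues for NOD-FMT minus PBS-T HCDR3 length in LG and spleen, 0.205 points of clonotypes for NOD-FMT minus NC in the LG and 0.111 for PBS-T minus NC in the spleen. Weighting by counts (for IgA, no weighting) gave within libraries 2.56 points for spleen IGHJ2, which does not pass (adjusted p = 0.392), 3.08 for spleen IgA, which does (adjusted p = 0.0193), -1.39 for LG IGHJ2 and -0.840 for LG IgA. Between NOD-FMT and PBS-T it gave 0.159 and -0.195 residues of HCDR3 in LG and spleen, -8.36 points of spleen IGHJ2, and -4.44 and -0.00955 points of P_2G10 neighbours in LG and spleen. Against the other IGHV1 genes only, IGHJ2 differed by -1.82 points in the LG and -0.633 in the spleen. Without HCDR3 opening with ARGG, a setting added after the data were seen, the differences were -2.90 points for LG IGHJ2, -4.40 for LG IgA and -1.87 for spleen IgA. The cause was not tested.

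Of the group comparisons of usage, none passed in any setting. LG clonotypes differed between NOD-FMT and PBS-T by 0.00622 points in merged libraries. For spleen counts the difference was 0.0176 points without the filter on shared sequences, 0.0339 with these kept in the mouse of highest count and 0.00291 on the log2 scale with 0.01 percent added. Thinned to equal depth, NOD-FMT minus NC was 0.0244 points in the LG and PBS-T minus NC 0.0226 in the spleen. LG minus spleen was -0.359 points in NOD-FMT and -0.404 in NC mice alone. Without P_2G10, spleen IgA differed by -1.59 points between NOD-FMT and PBS-T.

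The replicate number pairs no mice of different groups. With it as a replicate block, the NOD-FMT minus PBS-T difference was -1.05 points of LG clonotypes and 0.0667 of spleen counts. The block left 0 genes past the threshold in every group comparison, but 5 pairs with NC allow no p below 0.0625, so none could pass there, and 9 pairs none below 0.00391 before adjustment. LG minus spleen without the pairing of a mouse's tissues was 0.0779 (adjusted p = 0.916).

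With 1 mouse left out at a time, differences ran over both signs for 10 results. They were -0.194 to 0.131 points for NOD-FMT minus PBS-T in spleen counts, -0.335 (without NOD-FMT 8) to 0.393 (without NC 1) for NOD-FMT minus NC in the LG, -0.0308 to 0.0308 for PBS-T minus NC in the spleen, and -4.71 to 2.68 for LG IGHJ2 between NOD-FMT and PBS-T. In the spleen, between these groups, they were -0.352 to 0.0527 for mutations, -0.0229 to 0.0587 residues for HCDR3 length and -5.05 to 4.93 points for IgA. LG minus spleen ran from -0.249 (without PBS-T 2) to 0.179 points, and the within-library differences from -0.971 (without PBS-T 2) to 1.65 for LG IGHJ2 and from -0.306 (without PBS-T 8) to 1.49 for LG IgA. That for spleen IgA ran from 4.62 to 7.45 and passed without NC 3 or NC 4.

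P_2G10 held 8.71%, 4.60% and 8.72% of the LG counts of NOD-FMT 8 with no filter, with sequences of 2 or more mice removed, and with shared sequences kept in the mouse of highest count. In spleens it held 0.739% and 0.845% in NOD-FMT 6 under the first 2 of these and 0.355%, 0.454% and 0.370% in NOD-FMT 8 under all 3.

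Counts of all IGHV genes that passed also moved. For LG clonotypes of NOD-FMT against PBS-T, 4 became 2 with clonotypes of 2 or more counts or with every gene tested, 0 with unique sequences as the unit and within merged or other libraries, and 1 to 5 with 1 mouse left out. In the spleen 1 became 2 without the filter, with 2 or more counts, with unique sequences and when thinned. For NOD-FMT against NC in the LG, 5 became 3 with the stricter filter or thinning, 2 with 2 or more counts, and 2 to 8 with 1 mouse left out. In the spleen 0 became 1 when thinned. For LG counts 0 became 1 without NOD-FMT 1. Between tissues 38 became 0 in PBS-T or NC mice alone. The 5 NC mice allow no sign-flip p below 0.0625, so no gene could pass there. The 9 PBS-T mice allow none below 0.00391 before adjustment. A planned setting that leaves out rows naming a second IGHV gene was not run, because no row did. The LG libraries held a median of 20.5 IGHV1-9 clonotypes (6 to 450), which limits every LG value of the gene.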
